A study of Homo sapiens with 8 samples.

Results

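The RNAs of 9 m6A readers and erasers were followed in the neuroblastoma line SK-N-BE(2), an established line of human origin, with and without knockdown of METTL14. They are the 5 YTH-domain readers YTHDF1, YTHDF2, YTHDF3, YTHDC1 and YTHDC2, the readers HNRNPA2B1 and HNRNPC, and the demethylases FTO and ALKBH5. They were chosen by name, and all 9 were found among the 56303 genes of the count table and passed the filter on low counts. Cells of the sh-NC arm carried a control shRNA and cells of the shMETTL14 arm an shRNA against METTL14; the labels do not say which hairpin was used, and all results are from this 1 cell line. Each arm had 2 numbered samples, called cultures here although the labels do not say that they were grown apart, and each gave 1 input library and 1 IP library, which makes 8 libraries in 4 groups.

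N6-methyladenosine, or m6A, is a methyl mark placed on messenger RNA by a writer complex in which METTL14 pairs with the catalytic subunit METTL3. Readers bind marked RNA and pass it on to decay, translation, splicing or export, and erasers remove the mark. In MeRIP-seq, an m6A antibody captures fragmented mRNA (the IP), which is compared with fragments set aside beforehand (the input), so that the input measures RNA level and IP over input measures how strongly a gene's RNA was drawn to the antibody relative to the other genes of that library. A count per whole gene does not show where in the transcript the mark lies.

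YTHDC1 and YTHDC2 carry the same class of YTH domain but lay far apart in level, and their promoters are shown here because both hold the cAMP response element TGACGTCA. The sequences are RefSeq promoter windows of GRCh38.p14, printed 5′ to 3′ on the gene's strand, up to the start site or to the first base that the count table places in an exon; for YTHDC2 the last 11 bases before the start site were left out for that reason, among them the final base of the element. Capitals mark the element, GC boxes (GGGCGG) and CCAAT boxes, each searched on both strands. The YTHDC1 window is chr4:68350091-68350340 on the minus strand, and the YTHDC2 window is chr5:113513444-113513682 on the plus strand.
YTHDC1: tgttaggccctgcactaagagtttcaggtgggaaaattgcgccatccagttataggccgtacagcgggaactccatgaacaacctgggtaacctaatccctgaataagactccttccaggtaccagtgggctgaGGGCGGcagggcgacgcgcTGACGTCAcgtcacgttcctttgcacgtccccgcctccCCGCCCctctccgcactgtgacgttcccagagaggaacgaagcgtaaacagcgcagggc
YTHDC2: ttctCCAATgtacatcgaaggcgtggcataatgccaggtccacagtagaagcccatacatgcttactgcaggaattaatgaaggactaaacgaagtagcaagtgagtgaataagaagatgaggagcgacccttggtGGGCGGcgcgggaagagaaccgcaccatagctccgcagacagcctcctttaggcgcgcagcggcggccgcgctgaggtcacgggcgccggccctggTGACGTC

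Of 35116 promoters of 300 bases in that table, 1.85% held TGACGTCA, 45.0% a GC box and 34.6% a CCAAT box. The table had windows for 8 of the 9 genes, all but YTHDF3, with 9 windows in all because YTHDF2 had a pair of start sites. GC boxes stood in the windows of YTHDF1, YTHDF2, YTHDC1, YTHDC2, HNRNPC and ALKBH5, and CCAAT boxes in those of YTHDF1, 1 of the YTHDF2 windows, YTHDC2, HNRNPA2B1 and HNRNPC. Among the motifs searched, the FTO window held none. HNRNPC was the only member with the YY1 motif GCCATNTTG (2.92% of all promoters) or a TATAAA box (11.5%), and no member held the ETS motif CCGGAAG (10.3%). The motifs were picked after the sequences had been seen, and a match is a run of letters, not a shown binding site.

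Total counts ran from 32027379 to 47205265 per library. METTL14 itself was 49.5 and 48.7 CPM (a gene's counts scaled to a common library size with TMM factors) in the control inputs against 13.7 and 14.6 CPM after knockdown, a log2 change of −1.79 (SE 0.0663, adjusted p = 1.28e-15 by the quasi-likelihood test of edgeR, Benjamini-Hochberg adjusted over 22245 genes, as for every input change here). The IP libraries gave 78.0 CPM in each sh-NC culture and 24.7 and 23.2 CPM in the shMETTL14 cultures, in the same direction. Of the neuroblastoma markers, MYCN ran from 4221 to 4448 CPM and HAND2 from 987 to 1098 CPM in the inputs, while DBH was at 2.33 to 4.46 CPM. The summed level of 8 such markers was 5852 to 6081 CPM in sh-NC and 6188 to 6267 CPM in shMETTL14, with 6 of 8 called higher, none called lower and a median log2 change of 0.37, beside 11.7% of all genes called higher and 12.3% lower. MYCN differed by −0.0085 (adjusted p = 0.878), while CHGA, a secretory granule protein, rose by 0.58 (adjusted p = 2.13e-12) and TH, the first enzyme of catecholamine synthesis, by 1.03 (adjusted p = 7.96e-13). Markers of cells that should be absent were low for PTPRC (0.566 to 0.783 CPM), PECAM1 (0 to 0.168 CPM) and EPCAM (4.90 to 5.46 CPM), whereas the collagens were present and moved in opposite directions, COL1A1 from 82.2 and 88.4 CPM to 54.8 and 52.1 CPM (log2 change −0.67, adjusted p = 3.89e-10) and COL3A1 from 165.1 and 165.7 CPM to 178.7 and 184.4 CPM (0.14, adjusted p = 0.00576). The part of these shifts in the changes below was not tested.

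The 9 members spanned a 103-fold range of input level per kilobase of gene length, the scale on which genes can be compared. In the sh-NC inputs the order was HNRNPA2B1, HNRNPC, YTHDC1, YTHDF2, ALKBH5, YTHDF1, YTHDF3, YTHDC2 and FTO, and the libraries of every neighbouring pair were apart. The spread between libraries does not include any error in the gene length used as divisor. Without that division YTHDF3, at a mean of 58.6 CPM, lay above ALKBH5 (54.5 CPM) and YTHDF1 (52.4 CPM). FTO, at 49.5 CPM, then lay above YTHDC2 (44.8 CPM), and the rest kept their order. HNRNPA2B1, a nuclear protein that packages RNA and takes part in microRNA processing, led at 238 ± 4.45 CPM per kilobase (SD, n = 2, as for every ± below) and made up 57.8% of the summed level of the 9. HNRNPC, which binds uridine stretches of nascent RNA, followed at 73.4 ± 2.48 CPM per kilobase, 17.9% of the sum. YTHDC1, the nuclear reader linked to splicing and export, was at 33.5 ± 0.930 CPM per kilobase, the highest of the YTH readers.

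The cytoplasmic YTHDF readers and the erasers were lower. YTHDF2, which draws the CCR4-NOT deadenylase to marked RNA, was at 17.8 ± 0.195 CPM per kilobase. ALKBH5 was at 17.1 ± 0.193 and YTHDF1, linked to translation, at 15.9 ± 0.0835 CPM per kilobase, so that these 3 neighbours differed by less than 1.1-fold from one to the next though their libraries did not overlap. YTHDF3, a partner of both other YTHDF proteins, stood at 9.51 ± 0.115 and YTHDC2, an RNA helicase known from germ cells, at 4.14 ± 0.125 CPM per kilobase. FTO, the first m6A demethylase to be described, was lowest at 2.31 ± 0.00924 CPM per kilobase. Its merged exons add up to 21379 bases in 33 pieces, the longest of the 9, and a long merged length lowers a level per kilobase.

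**Figure D1:**
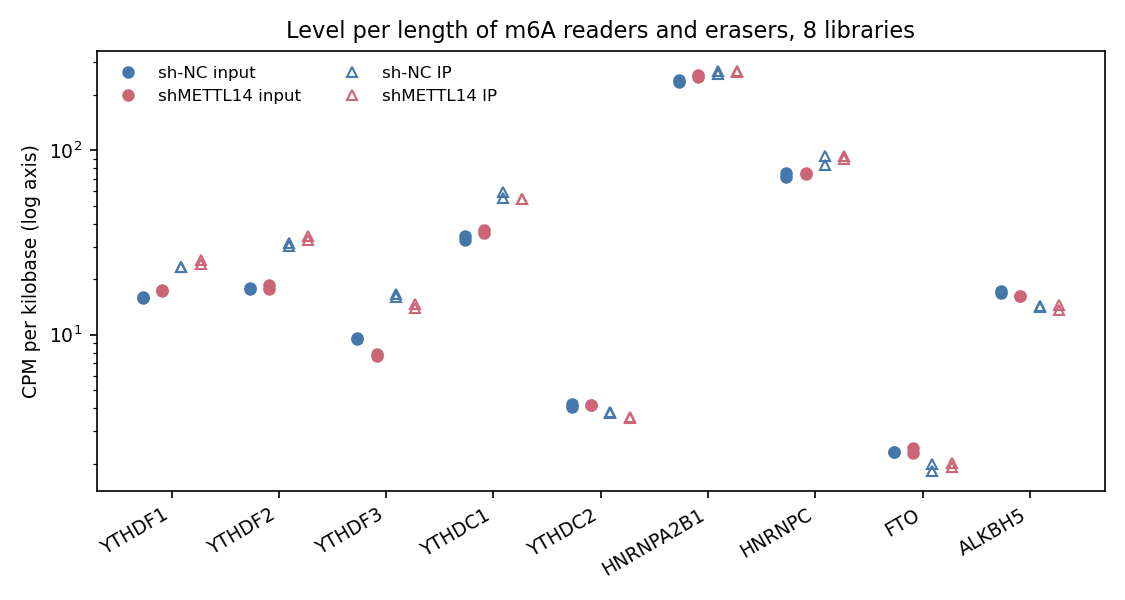
Level of each member in CPM per kilobase (log axis) in the 8 libraries, with filled circles for input, open triangles for IP, blue for sh-NC and red for shMETTL14. HNRNPA2B1 lay at 238 CPM per kilobase in the sh-NC inputs and FTO at 2.31, and YTHDF2, ALKBH5 and YTHDF1 lay close together at 15.9 to 17.8 in those inputs.

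After METTL14 knockdown YTHDF3 was lower in the input, YTHDC1 and HNRNPA2B1 were slightly higher, and the other 6 members did not pass the test. Over all genes tested, 11.7% were called higher and 12.3% lower, against 2 and 1 of the 9 members, which is close to that background. The median log2 change of the members was 0.03, beside 0.0024 over all genes. With 2 libraries against 2, the smallest p an exact test can give is 0.333. Arms that do not overlap are therefore a description here and no test. In bulk libraries, fewer cells holding an RNA and less of it per cell cannot be told apart.

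YTHDF3 (chromosome 8, 63168553 to 63212786, GRCh38, plus strand) was the member with the largest change. Its input level was 58.1 and 59.1 CPM in control cells against 47.03 and 48.7 CPM in knockdown cells. Both knockdown libraries lay below both controls, and the mean was 18.3% lower. The log2 change was −0.29 (SE 0.0505, adjusted p = 1.36e-04), and it kept its call under each of the 8 alternatives to the processing (adjusted p from 4.63e-06 to 0.0304) and without each culture in turn (log2 change from −0.31 to −0.26, adjusted p from 2.52e-04 to 0.0361).

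The other YTHDF readers did not follow YTHDF3. YTHDF1 (chromosome 20, 63195429 to 63216234, minus strand) was 52.2 and 52.6 CPM in the control inputs against 57.1 and 57.4 CPM after knockdown, so that the arms did not overlap. Its log2 difference of 0.13 (SE 0.0494) had an adjusted p of 0.0509 and was not called. With library size alone as scaling the adjusted p was 0.0403, and with only genes of at least 10 counts in every library it was 0.0376. With factors from the 13 mitochondrial mRNAs of the table, which shift the median gene by 0.10, it was 0.00130. Under the other alternatives it was not called, with an adjusted p of up to 0.135. Without a culture the log2 difference ran from 0.126 to 0.138 and was not called. YTHDF2 (chromosome 1, 28736621 to 28769775, plus strand) was 69.2 and 68.1 CPM against 67.9 and 71.8 CPM, with overlapping arms and a log2 difference of 0.03 (95% interval −0.07 to 0.13). Differences between the 3 genes' changes were not tested.

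Set against each other per length, the YTHDF readers shifted in composition. The shares are parts of the same sum, so the lower YTHDF3 level by itself raises the shares of YTHDF1 and YTHDF2. The YTHDF1 share is therefore not independent of the YTHDF3 change, and the input change of YTHDF1 itself was not called. YTHDF3 made up 21.8% and 22.2% of the summed YTHDF level in the control inputs against 17.9% and 17.99% after knockdown. YTHDF1 made up 36.6% and 36.9% in control cells against 40.7% and 39.6% in knockdown cells. For both genes the arms were apart, while YTHDF2, at 41.5% and 40.9% in control cells against 41.4% and 42.4% in knockdown cells, overlapped. The same order of YTHDF2, YTHDF1 and YTHDF3 held in all 8 libraries. In the IP libraries the share of YTHDF3 was 23.2% and 22.9% in sh-NC and 19.7% in each shMETTL14 culture.

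**Figure D2:**
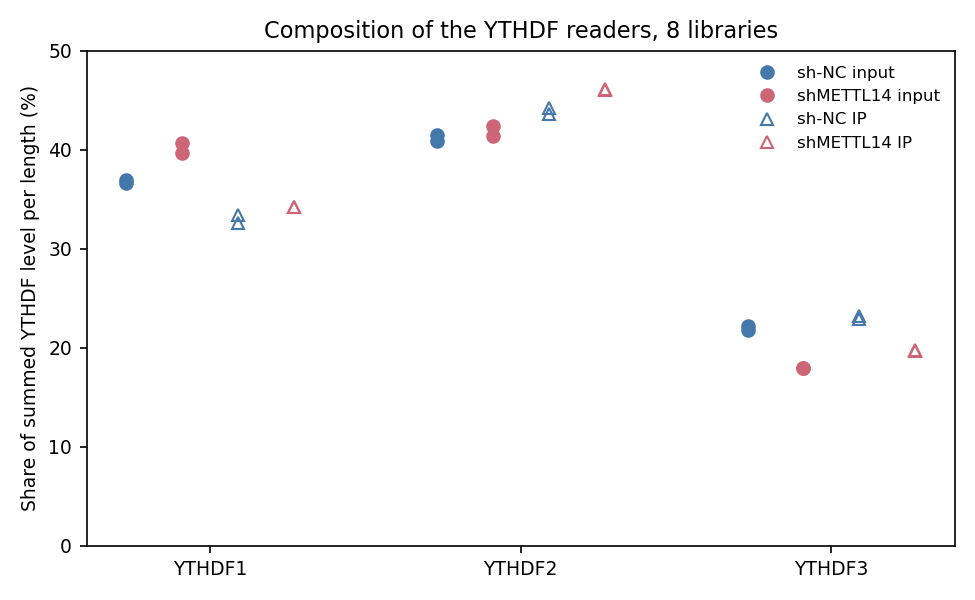
Share of the summed YTHDF level per length (%) held by YTHDF1, YTHDF2 and YTHDF3 in the 8 libraries, with filled circles for input, open triangles for IP, blue for sh-NC and red for shMETTL14. The YTHDF3 share fell from a mean of 22.0% to 17.97% in the input and the YTHDF1 share went from 36.8% to 40.2%. These shares are parts of the same sum, so they do not move independently, and they are values with no test.

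YTHDC1 (chromosome 4, 68310387 to 68350089, minus strand) was 239.9 and 230.6 CPM in the control inputs against 252.0 and 258.5 CPM after knockdown. The arms did not overlap, and the mean was 8.51% higher in knockdown cells. The log2 change was 0.12 (SE 0.0352, adjusted p = 0.0107); the call was lost without a filter on low counts (adjusted p = 0.0753) and in 3 of the 4 fits that left out a culture, those without sh-NC culture 2 (adjusted p = 0.0740), shMETTL14 culture 1 (0.0746) and shMETTL14 culture 2 (0.233). YTHDC2 (chromosome 5, 113513683 to 113595285, plus strand) was 45.7 and 43.8 CPM against 44.9 CPM in each knockdown culture, inside the control range, with a log2 difference of 0.01.

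HNRNPA2B1 (chromosome 7, 26189927 to 26201529, minus strand) was 1767 and 1815 CPM in the control inputs against 1876 and 1930 CPM after knockdown, above both controls. Its log2 change of 0.09 (SE 0.0281, adjusted p = 0.0161) was the smallest one called. It was lost without a filter (adjusted p = 0.0749), with all 8 libraries in the fit (0.0531) and without sh-NC culture 1 (0.0859), shMETTL14 culture 1 (0.0696) or shMETTL14 culture 2 (0.289). HNRNPC (chromosome 14, 21209136 to 21269494, minus strand) was 549.5 and 523.9 CPM against 548.7 and 544.0 CPM, with overlapping arms and a log2 difference of 0.03 (95% interval −0.03 to 0.10).

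Neither eraser passed the test. FTO (chromosome 16, 53701692 to 54158512, plus strand) was 49.6 and 49.3 CPM in the control inputs against 48.8 and 51.7 CPM after knockdown, with overlapping arms and a log2 difference of 0.03 (95% interval −0.08 to 0.14). ALKBH5 (chromosome 17, 18183078 to 18209954, plus strand) was 54.0 and 54.9 CPM against 51.5 CPM in each knockdown culture. Both knockdown libraries were below the controls, but the log2 difference of −0.07 (95% interval −0.18 to 0.03) had an adjusted p of 0.322.

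**Figure D3:**
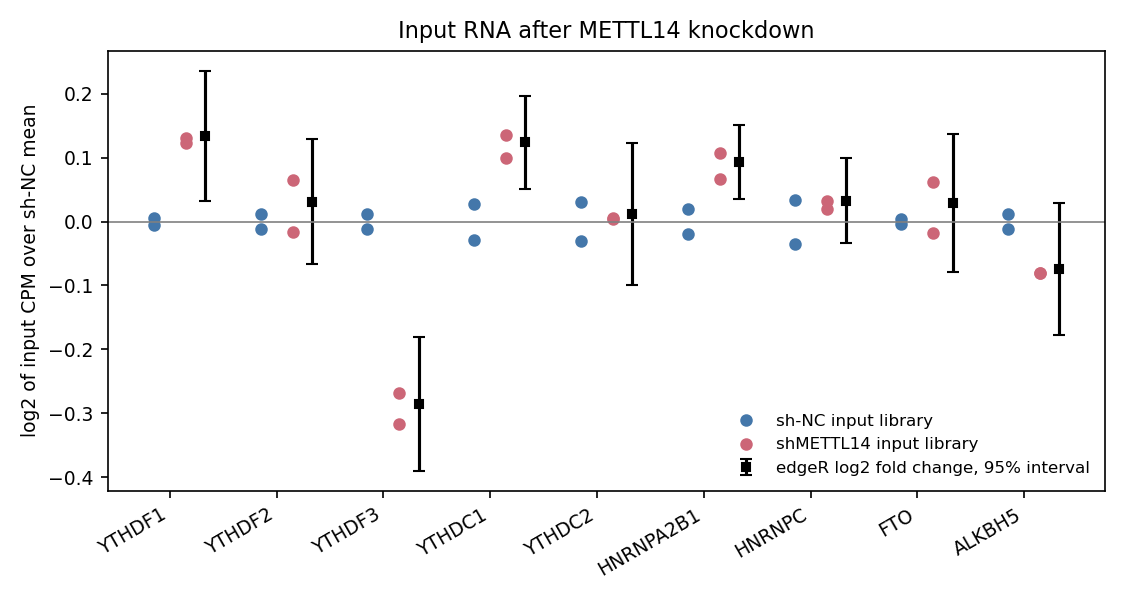
Input CPM of each library over the sh-NC mean (log2), with blue circles for the 2 sh-NC and red for the 2 shMETTL14 inputs, and in black the edgeR log2 fold change with its 95% interval. YTHDF3 lay lowest at −0.29, and YTHDF1, YTHDC1 and HNRNPA2B1 lay between 0.09 and 0.13.

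Read sharing limits 4 of the genes. ALKBH5 shares 357 of its exonic bases, 11.2% of its length, with RP11-258F1.1 on the opposite strand, whose counts reached 54.0% of those of ALKBH5 in 1 library and 39.2% over all 8. RP11-258F1.1 had an IP over input of 0.50 (log2) in sh-NC, on the other side of 0 from ALKBH5, and an input difference of −0.07 (adjusted p = 0.655). HNRNPA2B1 shares 368 bases, 4.88% of its length, with CBX3 on the opposite strand, whose counts came to 10.2% of its own and whose input difference was −0.05 (adjusted p = 0.323). How the counting handled strand is not given in the sources used here, so reads of the shared bases cannot be assigned. HNRNPC has 13 annotated copies with 9.15% of its counts between them, mostly HNRNPCP2, and YTHDF2P1 had 3.42% of the counts of YTHDF2; reads of such copies may be split.

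The RNAs of the members differed widely in how far the antibody drew them. In sh-NC cells 6 of the 9 were called higher in IP than in input and 2 lower, beside 29.1% and 29.8% of all genes (edgeR, 22953 genes tested in 1 model of 8 libraries, as for each IP over input value here). In shMETTL14 cells 6 were called higher and 3 lower, beside 28.9% and 29.1% of all genes. The median log2 IP over input of the members was 0.26 in sh-NC and 0.29 in shMETTL14, beside −0.01 and −0.0084 over all genes. The 2 arms have different libraries, but they share the model's estimate of the spread.

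The YTHDF RNAs and YTHDC1 were the most enriched. YTHDF2 had an IP over input CPM ratio of 1.76 and 1.72 in the control cultures against 1.95 and 1.76 in the knockdown cultures. Its log2 values of 0.80 (SE 0.0459, adjusted p = 4.12e-21) and 0.89 stood at the 89.3 and 91.9 percentiles of all genes. YTHDF3 was close to it, with ratios of 1.76 and 1.67 against 1.93 and 1.77. YTHDC1 had ratios of 1.61 and 1.80 against 1.52 and 1.49, and YTHDF1 of 1.47 and 1.46 against 1.48 and 1.40. Of these 4, YTHDC1 was the only one whose knockdown cultures both lay below both controls. Those of YTHDF2 and YTHDF3 lay just above, and those of YTHDF1 overlapped. Outside these 4, the knockdown cultures of HNRNPA2B1 and YTHDC2 also lay below both controls. None of these differences between the arms was called, and the share of all genes with arms apart was not counted.

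The hnRNP readers were less enriched than these 4. HNRNPC had ratios of 1.11 and 1.30 in control cultures against 1.24 and 1.20 in knockdown cultures, the widest spread between control cultures among the hnRNP and eraser genes. Its log2 values of 0.26 (adjusted p = 1.00e-07) and 0.29 (adjusted p = 9.92e-09) stood at the 65.1 and 66.8 percentiles of all genes. HNRNPA2B1 had ratios of 1.11 and 1.12 against 1.07 and 1.06. Its log2 values were 0.15 in sh-NC (adjusted p = 9.00e-05) and 0.09 in shMETTL14 (adjusted p = 0.0196), and the sign depends on the scaling: with factors from the 13 mitochondrial mRNAs they were −0.09 and −0.14, and with library size alone 0.02 and −0.03. With the cultures as a replicate block the shMETTL14 call of HNRNPA2B1 was lost (adjusted p = 0.0703), as it was without shMETTL14 culture 1 (0.274) or shMETTL14 culture 2 (0.158) and where genes under 10 counts in any library were dropped, with a log2 value of 0.06 (0.152). The calls of HNRNPC were lost with mitochondrial scaling, where its log2 values were 0.02 and 0.06.

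Both erasers and YTHDC2 were on the other side of the average gene. FTO had ratios of 0.862 and 0.793 in the control cultures against 0.839 and 0.836 in the knockdown cultures. Its log2 value was −0.27 in sh-NC (SE 0.0573, adjusted p = 6.43e-05) and −0.25 in shMETTL14 (adjusted p = 1.40e-04). ALKBH5 had ratios of 0.844 and 0.822 against 0.893 and 0.838, and log2 values of −0.26 (adjusted p = 3.45e-05) and −0.21 (adjusted p = 8.45e-04); without shMETTL14 culture 2 the latter was −0.16 and not called (adjusted p = 0.110). YTHDC2 had ratios of 0.904 and 0.933 against 0.858 and 0.856, with log2 values of −0.12 in sh-NC (adjusted p = 0.0580, not called, but 0.0163 where genes under 10 counts in any library were dropped) and −0.22 in shMETTL14 (adjusted p = 6.82e-04).

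These signs are relative to the typical gene. With factors taken from the 25% least enriched genes, the median gene moved to 0.90 in sh-NC and 0.84 in shMETTL14, all 9 members were called higher in both arms, as were 71.1% and 69.5% of all genes, and FTO stood at 0.64 and 0.60. Relative to that median FTO was still between −0.29 and −0.24 and ALKBH5 between −0.28 and −0.20 under every scaling and filter tried, the YTHDF RNAs between 0.50 and 0.90, and HNRNPA2B1 between 0.07 and 0.17. With library size alone the median gene stood at −0.14 and −0.13, and with mitochondrial scaling at −0.25 and −0.23.

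**Figure D4:**
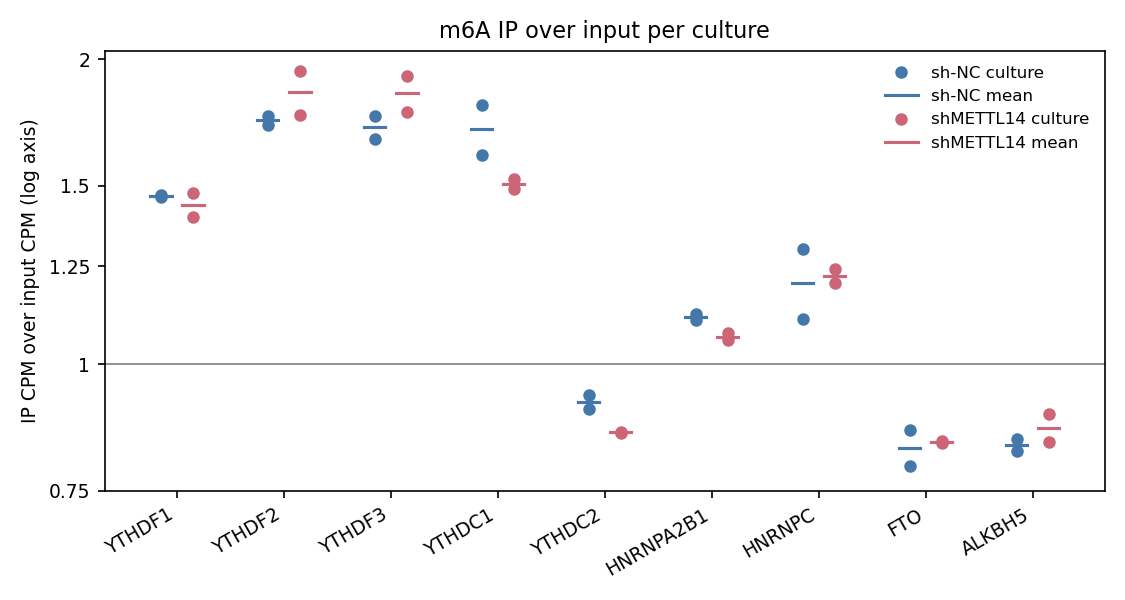
IP CPM over input CPM (log axis) of each member in the 2 cultures of each arm, blue for sh-NC and red for shMETTL14, with the mean as a short line. YTHDF2, YTHDF3 and YTHDC1 lay between 1.49 and 1.95, and YTHDC2, FTO and ALKBH5 lay below 1 in all 4 cultures.

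The difference in IP over input of the 2 arms asks whether METTL14 knockdown altered how far the antibody drew each RNA relative to the other genes. By edgeR, 0 of the 9 members were called in either direction, as were 0% of all genes for a rise and 0.00436% for a fall, which is 1 gene. At an unadjusted p under 0.05 the counts were 0 members higher and 1 lower, with 696 genes higher and 761 lower in all; DESeq2 also called no member, and no gene at all.

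YTHDC1 was the member at an unadjusted p under 0.05. Its IP over input changed by −0.18 on the log2 scale (95% interval −0.29 to −0.07, adjusted p = 0.562 by edgeR), with 0.77 in sh-NC and 0.59 in shMETTL14. Without sh-NC culture 1, which leaves 1 control culture that is assumed to vary like the other groups, the difference was −0.28 with an adjusted p of 0.00295, in a fit that called 6 genes higher and 116 lower. Without sh-NC culture 2 it was −0.10 (adjusted p = 0.730), so the size of the difference rests on which control culture is kept; without a knockdown culture it was −0.20 or −0.16 and not called. The difference combines input and IP values. In CPM the input of YTHDC1 was higher in knockdown cells. Its IP was 385.7 and 416.1 CPM in control cells against 383.7 and 385.1 CPM in knockdown cells. In a fit of the IP libraries alone its change was −0.06 and was not called (adjusted p = 0.326 by edgeR).

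YTHDF3 went the other way without passing the test. Its IP over input differed by 0.11 (95% interval −0.03 to 0.25), from 0.047 without shMETTL14 culture 1 to 0.17 without shMETTL14 culture 2 and 0.071 without sh-NC culture 2, and its IP level was 102.2 and 98.6 CPM in sh-NC against 90.7 and 86.4 CPM in shMETTL14. In a fit of the IP libraries alone it was the only member called, beside 10.4% of all genes called higher and 12.6% called lower, with a log2 change of −0.18 (adjusted p = 0.00217), beside −0.29 in the input. YTHDF1 differed by −0.03 (95% interval −0.17 to 0.11), YTHDF2 by 0.09 (−0.04 to 0.22; 0.014 without shMETTL14 culture 1 and 0.16 without shMETTL14 culture 2) and YTHDC2 by −0.10 (−0.26 to 0.06). FTO differed by 0.01 (−0.15 to 0.18) and ALKBH5 by 0.05 (−0.10 to 0.21). The intervals of the 8 members other than YTHDC1 include 0 and reach at most 0.26 from it. They bound a change relative to the average gene under TMM scaling, without showing that there was none. That scaling keeps the median gene near 0 (−0.0014), so a loss shared by most RNAs would not show in them. Scaled on the 25% least enriched genes instead, the median gene stood at −0.061. The paper reports lower total m6A after METTL14 knockdown, and a change of that kind was not tested.

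**Figure D5:**
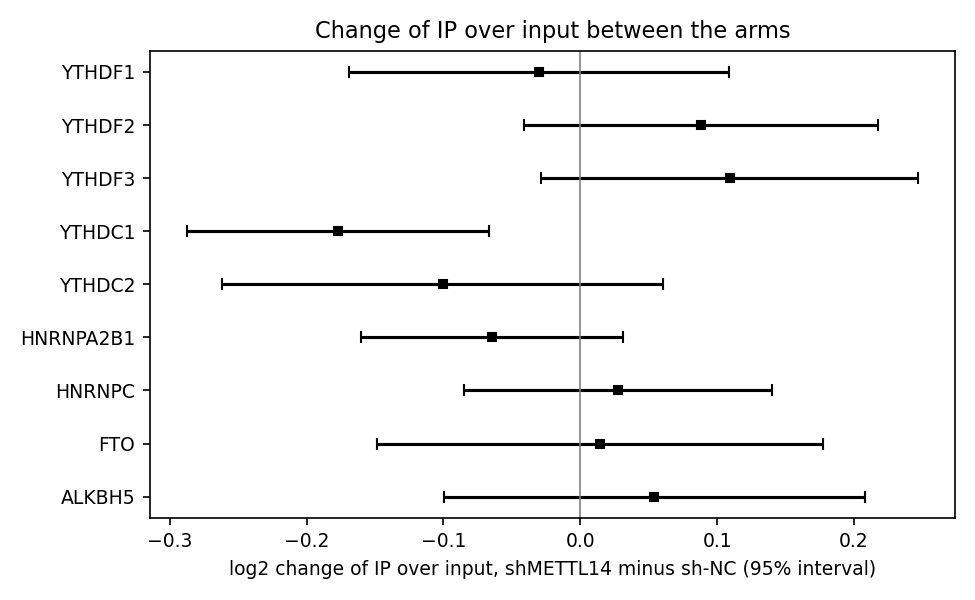
Log2 change of IP over input, shMETTL14 minus sh-NC, of each member with its 95% interval from the model of 8 libraries. The interval of YTHDC1 runs from −0.29 to −0.07, those of the other members include 0, and no member passed after adjustment.

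Lists of other pathway genes were set beside the 11.7% of all genes called higher and 12.3% called lower in the input, and no list was tested as a whole. Of 9 writer-complex genes 2 were called higher and 1, METTL14, lower; the writers RBM15B, an adaptor of the complex, and KIAA1429 (VIRMA), its scaffold, changed by 0.50 (adjusted p = 5.81e-09) and 0.25 (adjusted p = 2.30e-05). Of 9 other RNA-binding proteins described as readers 8 were tested and 2 were called lower, LRPPRC at −0.15 (adjusted p = 0.00242) and IGF2BP3 at −0.13 (adjusted p = 0.0348). Of 9 partners of the YTH proteins 1 was called higher and 3 lower, among them the CCR4-NOT subunits CNOT7 at −0.25 (adjusted p = 1.21e-04) and CNOT1 at −0.13 (adjusted p = 0.0102). The YTHDC2 partner MEIOC was higher by 0.19 and the splicing factor SRSF3 stood at −0.10; these 2 are outside the rule for named genes and were picked with their values known.

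Against the same shares of all genes, of 7 ALKB paralogs of the erasers 2 were called higher, ALKBH2, a DNA repair enzyme, at 0.28 (adjusted p = 3.18e-05) and the mitochondrial ALKBH7 at 0.27 (adjusted p = 0.0444), and none lower. Of 10 hnRNP paralogs none was called higher and 2 were called lower, HNRNPD at −0.28 (adjusted p = 1.82e-07) and HNRNPL at −0.13 (adjusted p = 0.00966). In these lists the change of IP over input called no gene.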

How the data were processed

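MeRIP-seq libraries of SK-N-BE(2) cells came from poly(A) RNA of 2 cultures per arm, with 1 input and 1 IP library per culture. The authors deposited raw read counts per gene for the 8 libraries, with gene length and exon positions. The submitters' processing notes name GRCh38 and Trimmomatic 0.36; the aligner, counting tool, strand setting and use of the molecular identifiers are not given in the sources used here, so counts may not be independent molecules. P-values rest on the spread between the 2 samples of a group, which may be technical. The models draw each gene's spread towards that of all genes, so standard errors, intervals and p-values borrow from other genes.

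Counts were analysed with edgeR 4.0.16 in R 4.3.3 (filterByExpr, TMM, glmQLFit, glmQLFTest, Benjamini-Hochberg adjustment, threshold 0.05) and with DESeq2 1.42.0 as an alternative. Input change used the 4 input libraries; IP over input and its change used 4 group means of 8 libraries. CPM used TMM factors over the 8 libraries, per kilobase of the table's gene length where genes were compared. Scripts were tested on simulated data. Replicate libraries differed by more than sampling noise (chi-square per gene 2.42 to 4.61). By the protocol, each culture's RNA was split into its IP and input; across genes, the departures of both libraries from their group means correlated by 0.0040 (sh-NC) and 5.55e-05 (shMETTL14). The alternatives were other scalings and filters, a replicate block, other sets of libraries and leaving out each culture. All 9 members were named, with METTL14, the 2 genes of smallest p in each pathway list, the most alike gene of each member, and overlapping genes or copies with at least 1% of a member's counts. The members and lists were chosen with earlier results of these data known. A marker of the cell type list is not reported here.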

Additional observations from a re-analysis of the deposited data

How the results depend on the processing

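Under DESeq2, RLE factors and library size alone, no count of called members moved by over 1.5 times. Called higher in the input were 4 members with mitochondrial scaling (21.3% of all genes), 0 without a filter on low counts (2.89%), 1 with all 8 libraries in the fit (11.1%), and 0 to 1 without a culture (2.83% to 10.0%), against 2 (11.7%). Called lower in IP over input were 0 members in both arms with factors from the least enriched genes (4.73% and 4.88% of all genes), against 2 and 3 (29.8% and 29.1%). For the change of IP over input, 0 members were called in any fit of all 8 libraries. Without a culture the value of YTHDC1 ran from −0.28 to −0.095. The value of −0.28 passed the threshold, in a fit that kept a single sh-NC culture. The IP libraries alone have no input term and measure the change in IP level, another quantity. There 1 member was called lower (12.6% of all genes).

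Signs turned in these cases, and the cause was not tested. With mitochondrial scaling, the input change of ALKBH5 was 0.025 and IP over input of HNRNPA2B1 −0.088 in sh-NC and −0.14 in shMETTL14; with library size alone the latter was −0.030. With factors from the least enriched genes, a scaling that moves the median gene, IP over input was 0.79 and 0.63 for YTHDC2, 0.64 and 0.60 for FTO and 0.65 and 0.64 for ALKBH5 (sh-NC and shMETTL14), and its change −0.034 for HNRNPC, −0.044 for FTO and −0.0048 for ALKBH5. The IP libraries alone leave out the input, so their signs belong to the change in IP level and not in IP over input. They gave YTHDF1 0.097, YTHDF3 −0.18, HNRNPA2B1 0.022, ALKBH5 −0.028 and METTL14 −1.70. Without a culture, the input change ran from −0.014 to 0.071 for YTHDF2, −0.020 to 0.041 for YTHDC2, −0.0031 to 0.066 for HNRNPC and −0.016 to 0.069 for FTO, and the change of IP over input from −0.072 to 0.0086 for YTHDF1, −0.11 to 0.14 for HNRNPC, −0.040 to 0.063 for FTO and −0.0026 to 0.19 for METTL14.

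With the replicate block, 2 members were called higher and 1 lower in the input, 6 higher and 2 lower in IP over input of sh-NC, 5 and 3 in shMETTL14 and 0 in its change; the call of HNRNPA2B1 in shMETTL14 was the only one of a member it ended. Same-numbered inputs of the arms deviated with a correlation of −0.01. For IP and input of the same culture the value was 0.0040 in sh-NC and 5.55e-05 in shMETTL14. This measure therefore cannot show whether same-numbered samples share more than a number. The shares of each member in the summed level are the same under any scaling by construction. Each arm had 2 cultures, and each member had over 1000 counts in every library; which of the 2 limits the precision more was not compared.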

Other observations

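For each member the gene with the most similar log2 CPM over the 8 libraries was sought among 10493 genes with a mean of at least 10 CPM. These were TRMT12 for YTHDF1 (Pearson r = 0.9997), RP11-574F21.3 for YTHDF2 (0.999), PLK4 for YTHDF3 (0.999), TPM4 for YTHDC1 (0.999), PANK2 for YTHDC2 (0.993), RP5-874C20.8 for HNRNPA2B1 (0.992), HELZ for HNRNPC (0.994), RINT1 for FTO (0.989) and TAF6L for ALKBH5 (0.997). The 8 libraries fall into an IP and an input set and into the sh-NC and shMETTL14 arms. The part of each split in these correlations was not tested. The correlations are the best of many genes and carry no test.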
